A study of Mus musculus with 24 samples.

Results

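A set of 10 genes of insulin receptor signalling and the FoxO transcription factors were followed across mouse livers that had or had not received a β3-adrenergic agonist. They were Insr, Irs1, Irs2, Pik3r1, Akt2, Grb10, Grb14, Trib1, Foxo1 and Foxo3. A probe was taken when it was a gene probe of the array and carried the name of a member, which gave 23 of 56605 gene probes. Of these 23 probes, 20 passed the filter on dim signals, and all 10 genes kept at least 1 probe among the 21331 genes tested.

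Insulin binds a receptor tyrosine kinase on hepatocytes, which phosphorylates the adaptor proteins IRS1 and IRS2. The adaptors recruit phosphatidylinositol 3-kinase, whose lipid product activates AKT, and AKT phosphorylates FoxO factors and so keeps them out of the nucleus. In fasted liver, where insulin is low, nuclear FoxO drives genes of glucose production and also Irs2 itself.

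Livers came from 24 male C57Bl/6J mice with free access to a standard diet, 6 in each of 4 groups. The LWT and LKO genotypes are read, from the title of the series, as mice with and without PPARα in hepatocytes. The allele, the Cre driver and the ages of the mice are not given in the sources used here. Vehicle mice received 0.5% carboxymethyl cellulose in water, and the mice labelled Beta3 received the β3-adrenergic agonist CL316243 at 3 mg/kg in that vehicle. Both were given by gavage at Zeitgeber time 10 h, counted from lights on, and all livers were taken at 16 h.

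Each mouse gave 1 single-colour array. A level is the log2 of the probe's processed intensity minus the log2 of the 75th percentile of intensities on that array, so that 0 marks the 75th percentile and a level cannot be compared between probes. The 75th percentile lay between 397 and 578 intensity units, and 26985 to 34202 probes per array were well above background. All 8 hepatocyte markers, among them Alb and Ttr, were well above background on all 24 arrays. Ppara was lower in LKO than in LWT without overlap under vehicle (log2 difference -0.68, adjusted p = 0.158) and under Beta3 (-1.91, adjusted p = 3.6e-07). Adjusted p-values are limma's, with the Benjamini-Hochberg adjustment over all 21331 genes, and a gene was called below 0.05. In bulk liver, fewer cells of a type and less RNA per cell cannot be told apart.

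The array of LKO Beta3 replicate 3 stood apart, with the lowest quality weight of the 24 arrays (0.204, against 0.471 for the next lowest). It held the highest Irs2, Pik3r1, Trib1 and Grb10 levels and the lowest Irs1, Foxo3 and Grb14 levels of its group. Without it, 7 members were called in LWT, 6 in LKO and 3 for the difference between the genotypes' responses. Genes of several cell types in the marker lists moved with the agonist. Of 8 kept neutrophil genes, 3 rose and 2 fell in LWT, and 5 rose and 0 fell in LKO. Their summed level, as multiples of the 75th percentile, was 93.4 to 105 in LWT Vehicle, 103 to 120 in LWT Beta3, 83.5 to 98.9 in LKO Vehicle and 99.8 to 168 in LKO Beta3. The neutrophil gene Ngp did not pass the filter. Of 8 kept endothelial genes, 2 rose and 1 fell in LWT, and 1 rose and 2 fell in LKO. Lyve1 rose (1.18 in LWT and 2.39 in LKO) and Kdr fell (-0.40 in LWT and -0.56 in LKO). Of 8 kept stellate genes, 1 rose and 2 fell in LWT, and 1 rose and 1 fell in LKO. Of 8 kept lymphocyte genes, 0 rose and 3 fell in LWT, and 1 rose and 3 fell in LKO. Of 6 bile duct genes, 1 rose in LWT and 2 in LKO, and of 9 Kupffer cell genes 0 were called in either. Hepatocyte genes were called too: of 8, 2 rose in LWT, and 1 rose and 1 fell in LKO. Of 5 kept fat cell genes, 1 was called, Adrb3, which fell (-2.10 in LWT and -1.92 in LKO). Their summed level had medians of 2.75 in LWT Vehicle, 1.26 in LWT Beta3, 3.38 in LKO Vehicle and 1.45 in LKO Beta3. Of 4 kept erythroid genes, 0 were called in LWT and 1 fell in LKO. Over all genes 38.3% were called in LWT and 40.3% in LKO. The part of these cells in the results below was not tested.

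With the agonist, Irs2, Pik3r1 and Trib1 rose and Foxo3 fell in both genotypes. In LWT livers 6 of the 10 genes were called, 4 higher and 2 lower, where 38.3% of all genes were called. In LKO livers 5 were called, 3 higher and 2 lower, where 40.3% of all genes were called. The groups did not overlap for 4 members in LWT (20.4% of all genes) and for 5 in LKO (20.8%). The median absolute log2 change was 0.60 over the members in LWT, against 0.25 over all genes, and 0.57 against 0.26 in LKO. Irs2, Pik3r1, Trib1 and Foxo3 were called in the same direction in both genotypes (4 of 10, against 24.7% of all genes), and Akt2, Grb14 and Foxo1 in neither (3 of 10, against 46.7%). Both genotypes have their own vehicle mice, so the log2 changes of these comparisons share no sample. Their calls are not separate, because the same fit to all arrays gave each gene a variance shared by all groups. Without LKO Beta3 replicate 3, for example, the LWT change of Irs1 stayed at -0.72 but became called (adjusted p = 0.0172, against 0.0695).

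**Figure D1:**
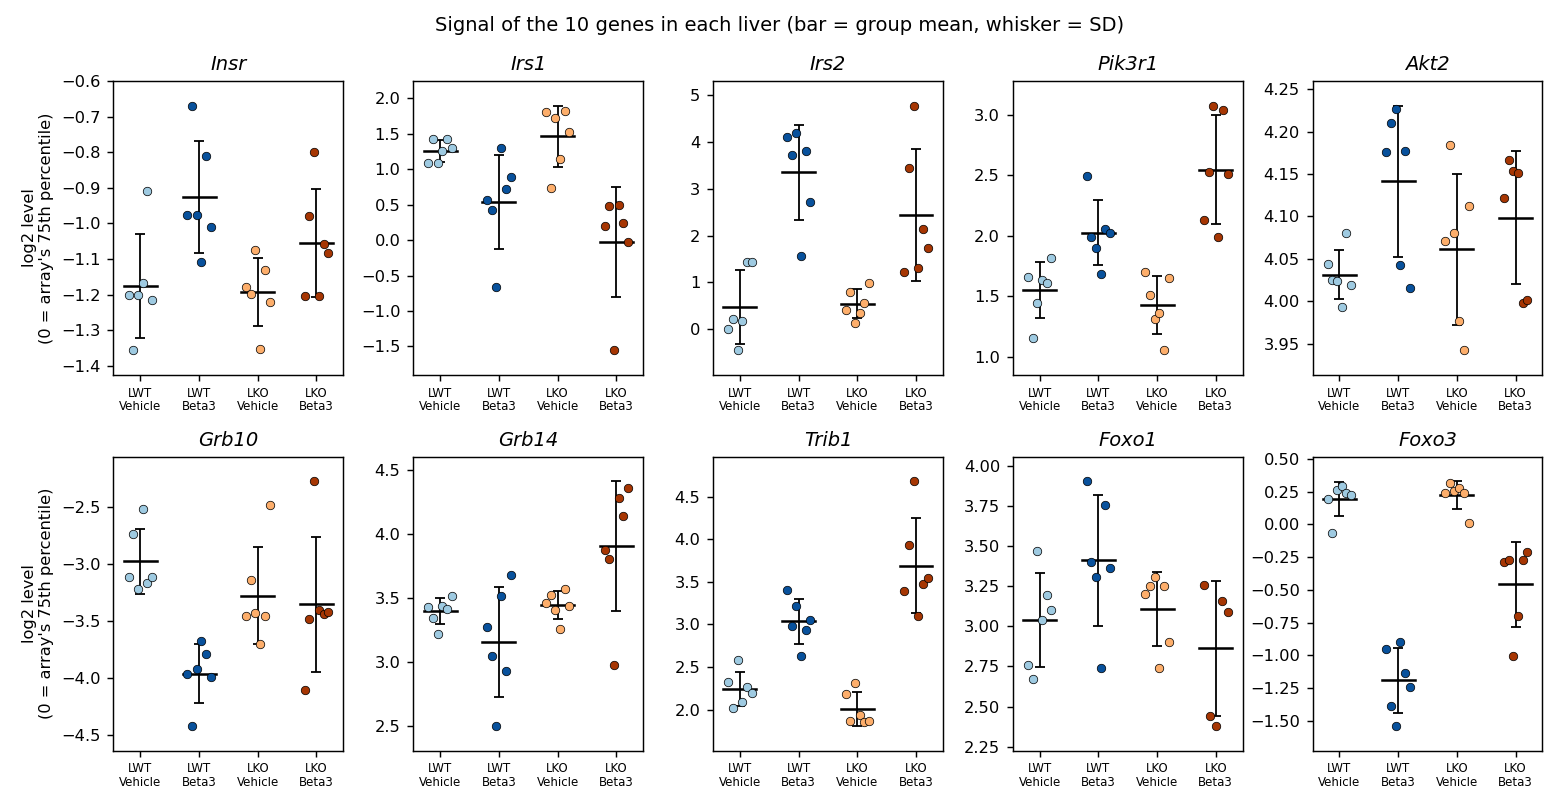
Level of the brightest kept probe of each of the 10 genes in every liver, as log2 of intensity relative to the array's 75th percentile (vertical axis, a scale of its own for each gene), by group. Points are mice, horizontal bars group means and whiskers SD (n = 6, and 5 for Foxo1 in LKO Beta3). Irs2, Trib1 and Foxo3 show Beta3 livers wholly separate from vehicle livers in both genotypes.

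Insr encodes the insulin receptor itself, and its brightest probe moved little. Its lowest, median and highest levels were -1.36, -1.20 and -0.91 in LWT Vehicle and -1.11, -0.98 and -0.67 in LWT Beta3. They were -1.35, -1.19 and -1.07 in LKO Vehicle and -1.21, -1.07 and -0.80 in LKO Beta3. The groups overlapped in both genotypes, although all 6 LWT Beta3 mice lay above the LWT Vehicle mean. Insr rose in LWT by a log2 change of 0.25 ± 0.08 (SE; 1.19-fold, adjusted p = 0.0218), while the LKO change of 0.14 was not called (95% interval -0.04 to 0.31, adjusted p = 0.201). The LWT call was lost in the deposited series table (adjusted p = 0.0559), without the filter on dim probes (0.0536) and with the mean of both probes (0.0575). It was also lost without LWT Beta3 replicate 2 (0.0665) or 5 (0.0517) and without LWT Vehicle replicate 2 (0.0589). The dimmer probe, at base 4038, gave 0.22 in LWT (adjusted p = 0.266) and 0.31 in LKO (adjusted p = 0.101), neither called. The difference between the genotypes' responses was not called at either probe. It was -0.11 at the brightest (adjusted p = 0.688) and 0.09 at base 4038 (adjusted p = 0.868).

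Irs1 and Irs2, the adaptors through which the receptor reaches phosphatidylinositol 3-kinase in liver, changed in opposite directions in LKO. Irs2 is the adaptor known to rise in fasted liver. Its lowest, median and highest levels were -0.45, 0.20 and 1.45 in LWT Vehicle and 1.58, 3.76 and 4.18 in LWT Beta3. In LKO they were 0.14, 0.49 and 0.99 under vehicle and 1.21, 1.93 and 4.78 under Beta3. Every Beta3 liver lay above every vehicle liver of its genotype, and the vehicle groups of both genotypes covered similar levels. Irs2 rose by a log2 change of 2.88 ± 0.53 in LWT (7.34-fold, adjusted p = 0.000178) and of 1.89 ± 0.53 in LKO (3.72-fold, adjusted p = 0.00655).

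The Irs2 response in LKO was smaller than that in LWT by 0.98 on the log2 scale, which was not called (95% interval of the difference -2.53 to 0.57, adjusted p = 0.542). Among Beta3 livers, Irs2 was lower in LKO by 0.91, also not called (adjusted p = 0.278). Whether that comparison was called turned on LKO Beta3 replicate 3, the mouse with the highest Irs2 level in the study. Without it the LKO response was 1.43 (adjusted p = 0.0179) and the Beta3 livers differed by -1.38 (adjusted p = 0.0384). With array weights they differed by -1.29 (adjusted p = 0.0363). The sign was not the same on all slides: Irs2 was higher in LKO on slide 1 (1.97) and lower on slides 2 (-2.48) and 3 (-2.23). The difference between the responses changed sign too (1.89, -2.97 and -1.86). Slide 1 held replicate 3 and also LKO Beta3 replicate 2, at 3.45.

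Irs1 went the other way. Its lowest, median and highest levels were 1.08, 1.28 and 1.43 in LWT Vehicle and -0.66, 0.64 and 1.30 in LWT Beta3. In LKO they were 0.74, 1.63 and 1.82 under vehicle and -1.56, 0.22 and 0.50 under Beta3. The LKO groups did not overlap, whereas 1 of 6 LWT Beta3 mice lay above the LWT Vehicle mean. Irs1 fell in LKO by 1.49 on the log2 scale (SE 0.31, adjusted p = 0.000576), and by 1.18 without LKO Beta3 replicate 3 (adjusted p = 0.000749). The LWT change of -0.72 was not called (95% interval -1.36 to -0.08, adjusted p = 0.0695). It was called with normexp background correction (adjusted p = 0.0463), in the series table (0.0489), with array weights (0.0116), with the 12 LWT mice alone (0.0416) and without LWT Beta3 replicate 4 (0.0296) or LKO Beta3 replicate 3 (0.0172). The difference between the responses was not called (-0.77, 95% interval -1.67 to 0.14, adjusted p = 0.377).

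The 250 bases before the annotated start of Irs1 and of Irs2 are shown because both hold the insulin response element core, CAAAACA, through which FoxO factors are known to act on Irs2. They are RefSeq sequence of build GRCm38.p6, both from the minus strand, printed 5′ to 3′ and ending at the base before the start. Capitals mark each match, which reads TGTTTTG here because it lies on the opposite strand of the gene.
Irs1, chr1:82291440-82291689: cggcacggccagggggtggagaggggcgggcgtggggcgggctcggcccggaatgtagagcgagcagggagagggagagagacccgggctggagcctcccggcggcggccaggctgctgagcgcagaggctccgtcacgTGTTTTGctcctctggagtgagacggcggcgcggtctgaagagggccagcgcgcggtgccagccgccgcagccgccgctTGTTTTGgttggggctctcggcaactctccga
Irs2, chr8:11008930-11009179: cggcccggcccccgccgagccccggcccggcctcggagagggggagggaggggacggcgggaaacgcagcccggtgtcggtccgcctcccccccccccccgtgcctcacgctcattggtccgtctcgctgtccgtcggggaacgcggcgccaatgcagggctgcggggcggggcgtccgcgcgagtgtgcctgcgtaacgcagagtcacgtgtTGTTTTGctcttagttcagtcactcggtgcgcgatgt
In Irs2 the match covers bases 37 to 31 before the start, and in Irs1 the 2 matches cover bases 111 to 105 and 32 to 26. Windows were found for 8 of the 10 members, 13 windows in all, since some genes have several starts. Searched on both strands, CAAAACA was in 2 of these 13 windows and in 5.56% of 32851 windows of all genes. The FoxO core GTAAACA was in 0 of 13 and 3.17% of all. The cAMP response element TGACGTC was in 1 of 13, a Grb10 window, and in 2.78% of all. The PPAR response element, as AGGTCA and its direct repeat with 1 base between, was in 0 of 13 and 0.0335% of all. These letters are a description of the windows, and whether the core acts on either gene was not tested.

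Pik3r1 encodes the main regulatory subunit of phosphatidylinositol 3-kinase, which binds the phosphorylated adaptors. The lowest, median and highest levels were 1.15, 1.62 and 1.81 in LWT Vehicle and 1.69, 2.01 and 2.50 in LWT Beta3. In LKO they were 1.05, 1.43 and 1.70 under vehicle and 1.99, 2.52 and 3.08 under Beta3. The LKO groups were apart, and the LWT groups overlapped with all 6 Beta3 mice above the vehicle mean. Pik3r1 rose by 1.12 ± 0.17 in LKO (2.17-fold, adjusted p = 3.14e-05) and by 0.47 ± 0.17 in LWT (1.39-fold, adjusted p = 0.0342). The LWT call was lost without the filter on dim probes (adjusted p = 0.0673) and without LWT Vehicle replicate 2 (0.0893) or 3 (0.0601) or LWT Beta3 replicate 1 (0.0938) or 5 (0.0558). The difference between the responses was 0.64 (95% interval 0.13 to 1.15) and was not called (adjusted p = 0.145), though it was with array weights (0.73, adjusted p = 0.033).

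Akt2 encodes the AKT kinase that carries most of the insulin signal in liver, and it was not called in either genotype. Its brightest probe had group medians of 4.02 in LWT Vehicle, 4.18 in LWT Beta3, 4.08 in LKO Vehicle and 4.14 in LKO Beta3, and levels from 3.94 to 4.23 over all mice. The log2 change was 0.11 in LWT (95% interval -0.00 to 0.22, adjusted p = 0.113) and 0.04 in LKO (95% interval -0.07 to 0.15, adjusted p = 0.609). The other probes, at bases 1052 and 1369 of their transcripts, gave 0.22 and 0.18 in LWT but -0.30 and -0.14 in LKO, none of them called, so the probes of Akt2 differed in sign in LKO.

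Grb10 and Grb14 encode adaptors that bind the activated insulin receptor and restrain it. Grb10 was dim: its probe at base 2366 passed the filter, and those at bases 320 and 3140 of their transcripts did not. The lowest, median and highest levels were -3.22, -3.12 and -2.52 in LWT Vehicle and -4.42, -3.94 and -3.68 in LWT Beta3, where 5 of 6 mice were well above background. The LKO levels were -3.70, -3.44 and -2.48 under vehicle and -4.11, -3.43 and -2.28 under Beta3. The LWT Beta3 livers lay below every LWT Vehicle liver, and the LKO groups overlapped. Grb10 fell in LWT by 0.98 on the log2 scale (SE 0.23, adjusted p = 0.00163). The size of this fall differed between settings: the change was -0.32 with normexp (adjusted p = 0.0391) and -0.51 in the series table (adjusted p = 0.00422). The LKO change of -0.08 was not called (95% interval -0.55 to 0.40, adjusted p = 0.815). The difference between the responses, 0.91, was not called (95% interval 0.24 to 1.58, adjusted p = 0.115), and it was 0.39 with normexp and 0.48 in the series table. It was called with array weights (0.83, adjusted p = 0.0339), without LKO Vehicle replicate 6 (1.07, adjusted p = 0.0408) and without LKO Beta3 replicate 1 (1.06, adjusted p = 0.0469).

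Grb14 was not called for the agonist in either genotype. The lowest, median and highest levels were 3.22, 3.42 and 3.52 in LWT Vehicle, 2.50, 3.16 and 3.68 in LWT Beta3, 3.26, 3.45 and 3.57 in LKO Vehicle and 2.98, 4.01 and 4.36 in LKO Beta3. In LKO Beta3, 5 of 6 mice lay above the LKO Vehicle mean, and replicate 3 lay below the whole LKO Vehicle group. The LWT change was -0.24 (95% interval -0.63 to 0.15, adjusted p = 0.348) and the LKO change 0.46 (95% interval 0.07 to 0.85, adjusted p = 0.0548). Without LKO Beta3 replicate 3, the LKO change was 0.65 and called (adjusted p = 0.002), as was the difference between the responses (0.89, adjusted p = 0.0112). The LKO change was also called without LWT Beta3 replicate 3 (0.0343) or 6 (0.0445) and with array weights (0.61, adjusted p = 0.000866), as was the difference between the responses (0.91, adjusted p = 0.00244).

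Trib1 encodes a tribbles pseudokinase known as a scaffold for protein degradation in hepatocytes. Lowest, median and highest levels of this gene were 2.01, 2.23 and 2.58 in LWT Vehicle and 2.63, 3.02 and 3.40 in LWT Beta3. The LKO levels were 1.85, 1.90 and 2.32 under vehicle and 3.10, 3.51 and 4.68 under Beta3. Beta3 and vehicle livers were apart in both genotypes, and the highest levels of all were those of LKO Beta3. Trib1 rose by 0.79 ± 0.19 in LWT (1.73-fold, adjusted p = 0.00199) and by 1.68 ± 0.19 in LKO (3.21-fold, adjusted p = 7.85e-07). The response in LKO exceeded that in LWT by 0.89 (95% interval 0.34 to 1.44), which was just not called (adjusted p = 0.0522). It was called under 9 of the other settings (adjusted p from 0.0103 to 0.0492), the lowest being with the mean of all 3 probes. It was also called without LKO Beta3 replicate 1, 3 or 4, LWT Beta3 replicate 1 or LKO Vehicle replicate 3 (0.69 to 1.01, adjusted p from 0.0214 to 0.0469).

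Trib1 had 3 probes. The probe at base 2477 rose by 0.84 in LWT and by 1.94 in LKO (adjusted p = 0.00891 and 2.97e-06 over all kept probes). The probe named Trib1 at base 2507 was placed by the array's annotation on the minus strand, whereas the other two lie on the plus strand. It was dim, with a mean level of -4.71 in LWT Vehicle, and was well above background in 4 of 6 LKO Vehicle mice. It rose by 1.77 in LKO (adjusted p = 4.46e-05) and its LWT change of 0.47 was not called (adjusted p = 0.203). Whether it reads the same transcript as the other two was not tested.

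Foxo1 and Foxo3 encode the FoxO factors that AKT inactivates. Foxo3 fell in both genotypes. Lowest, median and highest levels of this gene were -0.07, 0.23 and 0.29 in LWT Vehicle and -1.54, -1.19 and -0.90 in LWT Beta3. The LKO levels were 0.01, 0.25 and 0.32 under vehicle and -1.01, -0.28 and -0.21 under Beta3. The vehicle groups covered the same levels, every Beta3 liver lay below every vehicle liver, and the LWT Beta3 livers were the lowest apart from an overlap with 1 LKO Beta3 mouse. Foxo3 fell by 1.38 on the log2 scale in LWT (SE 0.13, 2.61-fold lower, adjusted p = 2.36e-08) and by 0.68 in LKO (SE 0.13, 1.60-fold lower, adjusted p = 0.000185).

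Foxo3 was the 1 member of 10 called for the difference between the genotypes' responses, where 5.41% of all genes were called. Foxo3 was called higher in LKO, as were 2.17% of all genes, and 0 members were called lower (3.24% of all genes). It did not stand alone by size: 6 of 10 members had an unadjusted limma p under 0.05 for this difference. The median absolute difference was 0.70 over the members, against 0.19 over all genes. For Foxo3, the values were as follows. The fall in LKO was smaller by 0.70 ± 0.18 on the log2 scale (adjusted p = 0.0209). The difference had the same sign on all 3 slides, and was 0.81 without LKO Beta3 replicate 3 (adjusted p = 0.00148). Without the filter on dim probes it was not called (adjusted p = 0.0518).

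Foxo3 has probes in separate parts of its transcript, and 2 of them are known to lie in the coding sequence. They are shown with their place on the mouse genome, build mm9, chromosome 10, minus strand. The genotype difference was called at the brightest probe, at base 6438, and at base 2242, but not at base 544.
Foxo3 base 544, chr10:41994961-41995020: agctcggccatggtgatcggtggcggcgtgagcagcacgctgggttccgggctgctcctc
Foxo3 base 2242, chr10:41916349-41916408: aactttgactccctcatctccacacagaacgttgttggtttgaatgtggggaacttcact
The probe at base 2242 had group medians of -2.29 in LWT Vehicle, -3.61 in LWT Beta3, -2.34 in LKO Vehicle and -2.71 in LKO Beta3. It fell by 1.35 in LWT (adjusted p = 9.01e-06), the LKO change of -0.33 was not called (adjusted p = 0.164), and the difference of 1.01 was called (adjusted p = 0.025). With the mean of the Foxo3 probes the LKO change was -0.44 (adjusted p = 0.0209). The dimmer probe at base 544 fell by 0.95 in LWT (adjusted p = 0.00234) and gave -0.29 in LKO and a difference of 0.65, neither called (adjusted p = 0.322 and 0.277). In LWT Beta3 it was well above background in 4 of 6 mice.

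Foxo1 was not called by its brightest probe. Lowest, median and highest levels of this gene were 2.67, 3.07 and 3.47 in LWT Vehicle and 2.74, 3.38 and 3.90 in LWT Beta3. The LKO levels were 2.74, 3.23 and 3.31 under vehicle and 2.38, 3.09 and 3.26 under Beta3, where 1 spot was an outlier and left out, so that n = 5. The groups overlapped in both genotypes. The log2 change was 0.37 in LWT (95% interval -0.02 to 0.77, adjusted p = 0.131) and -0.25 in LKO (95% interval -0.66 to 0.17, adjusted p = 0.348). The LWT change was called without LWT Beta3 replicate 4 (0.51, adjusted p = 0.0283) and with array weights (0.49, adjusted p = 0.0155). The probe at base 4809 rose in LWT by 0.49 (adjusted p = 0.0447) and gave -0.02 in LKO (adjusted p = 0.942).

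**Figure D2:**
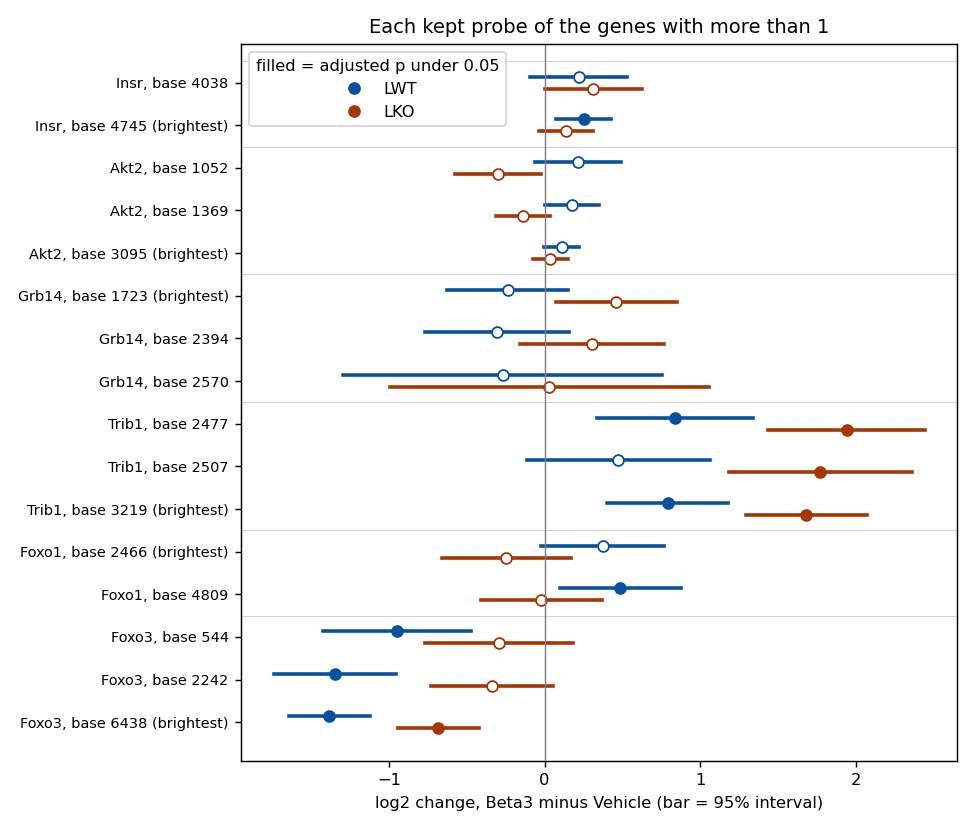
Log2 change with CL316243 (horizontal axis, Beta3 minus Vehicle; bars are 95% intervals) at each kept probe of the 6 genes with more than 1, in LWT (blue) and LKO (orange). Filled points had adjusted p under 0.05 over all kept probes. The Foxo3 probes lie left of 0 and the Trib1 probes right of it in both genotypes.

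The members' levels were also compared between LKO and LWT within each treatment. Under vehicle 0 of 10 members were called, where 1.18% of all genes were called, and 0 of 10 had an unadjusted limma p under 0.05. The genotypes overlapped for all 10 members under vehicle and under Beta3, where 1.8% and 6.57% of all genes did not overlap. The vehicle differences ran from -0.30 for Grb10 to 0.20 for Irs1. Under Beta3 4 of 10 were called, all higher in LKO, where 15.9% of all genes were called, 7.74% higher and 8.17% lower. These were Foxo3 (0.73, adjusted p = 0.000207), Grb14 (0.75, adjusted p = 0.00773), Trib1 (0.65, adjusted p = 0.02) and Pik3r1 (0.52, adjusted p = 0.0431). The Beta3 comparison shares its samples with the responses above, so its values are not a separate line of evidence.

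The Foxo3 difference under Beta3 was called at all 3 probes, at 0.73 to 0.96. The Trib1 difference was called at all 3 probes, at 0.65 for the brightest, 0.85 at base 2477 and 1.64 at base 2507. The last is the dim probe placed on the minus strand, and it also enters the mean of the 3 (1.05, adjusted p = 0.000202). At the brightest probe the Trib1 call was lost without LWT Beta3 replicate 4 (adjusted p = 0.0509). For Grb14, 2 of 3 kept probes were called, and the mean over its probes was not (0.57, adjusted p = 0.217). The sign was the same on all 3 slides for Foxo3, Trib1 and Pik3r1, whereas Grb14 was lower in LKO on 1 slide (-0.21) and higher on the other two (1.34 and 1.11). With the 12 Beta3 mice alone, Foxo3 was the 1 member called, with adjusted p = 0.106 for Trib1, 0.0826 for Grb14 and 0.132 for Pik3r1. The Pik3r1 call was also lost without the filter on dim probes (0.0884) and with slide as a block (0.0539). It was lost without LWT Beta3 replicate 2, 3, 4, 5 or 6, LWT Vehicle replicate 4 or 5, LKO Vehicle replicate 3 or LKO Beta3 replicate 2, 3, 5 or 6 (0.0502 to 0.116). Foxo1 was lower in LKO by 0.55 without being called (adjusted p = 0.0679), and Grb10 higher by 0.61 (adjusted p = 0.0766). Foxo1 was called with the mean of its probes (-0.59, adjusted p = 0.0296) and without LWT Beta3 replicate 4 (-0.68, adjusted p = 0.0155) or LKO Beta3 replicate 1 (-0.65, adjusted p = 0.0414), and Grb10 without LKO Beta3 replicate 1 (0.76, adjusted p = 0.0223) or LKO Vehicle replicate 6 (adjusted p = 0.0497).

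**Figure D3:**
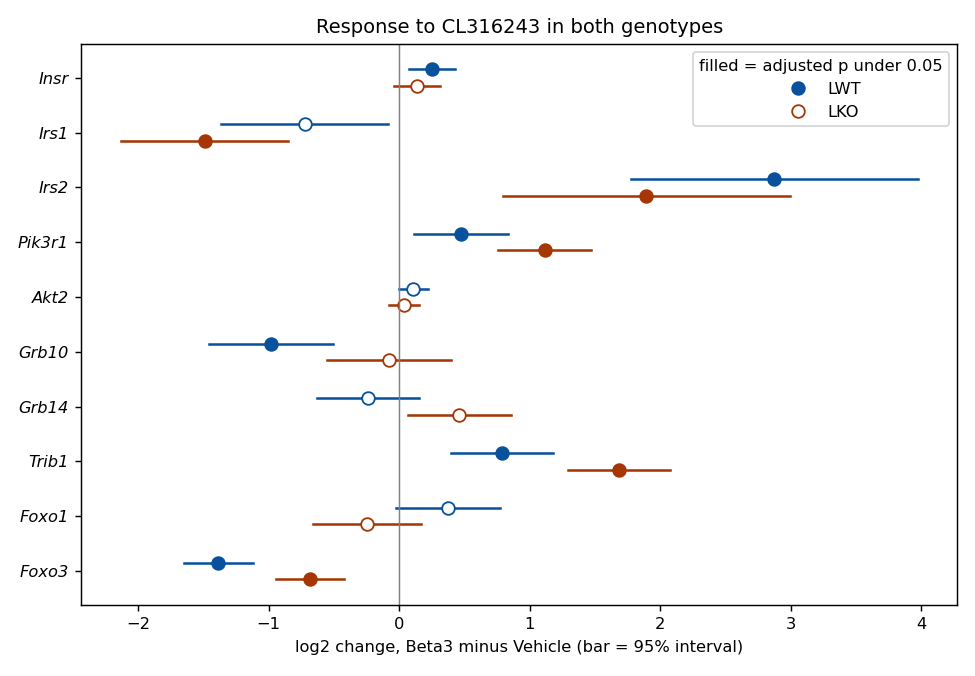
Log2 change with CL316243 (horizontal axis, Beta3 minus Vehicle; bars are 95% intervals) for the 10 genes in LWT (blue) and LKO (orange); filled points had adjusted p under 0.05. Irs2 has the widest intervals, Foxo3 falls further in LWT (-1.38) than in LKO (-0.68), and Trib1 lies at 0.79 in LWT and 1.68 in LKO.

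Other genes of the pathway were taken from 6 lists of 125 genes in all, of which 121 were tested. In LWT 57 of 121 were called (47.1%), 32 higher and 25 lower, and in LKO 69 were called (57%), 40 higher and 29 lower. Between the genotypes' responses 17 of 121 differed (14%). The same shares over all genes were the 38.3%, 40.3% and 5.41% given above, and the lists were chosen with earlier results known. The median change over the 121 was 0.06 in LWT and 0.16 in LKO, against 0.01 and 0.03 over all genes.

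The receptor and adaptor list moved least. In LWT 3 of 15 tested genes were called, all higher, and in LKO 2 of 15, also higher. Sos2, an exchange factor for Ras, rose in both (0.22 and 0.30, adjusted p = 0.0141 and 0.00127). Its relative Sos1 rose in LWT (0.41, adjusted p = 0.00221), although 1 of its other 2 probes gave -0.53, and was lower in LKO than in LWT under Beta3 (-0.58, adjusted p = 0.000187). Cbl, a ubiquitin ligase, rose in LWT by 0.32 and the adaptor Shc1 rose in LKO by 0.29, although its other probe gave -0.08 there. No gene of this list was called for the difference between responses, and 1 of 15 had an unadjusted limma p under 0.05.

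In the list of kinases and targets from phosphatidylinositol 3-kinase to mTOR, 13 of 28 genes were called in LWT, 7 higher and 6 lower, and 17 in LKO, 9 higher and 8 lower. Pdpk1, the kinase that activates AKT, rose in LWT by 0.71 (adjusted p = 4.44e-07). Gsk3a, a kinase that AKT inhibits, rose by 0.68 in LWT and 0.52 in LKO, and its relative Gsk3b rose by 0.83 in LKO, where 1 of its other 3 probes gave -0.09. Rheb, the activator of mTOR, rose by 0.46 in LKO (adjusted p = 0.000117).

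In this list 3 genes differed between responses. Mtor, the kinase of the mTOR complexes, rose in LWT by 1.04 (adjusted p = 1.07e-07) and fell in LKO by 0.30 on the log2 scale (adjusted p = 0.0258), a difference of -1.34 (adjusted p = 4.36e-06). Its other probe gave 0.48 in LWT and a difference of -0.53, both called. These are close in size, so the fall in LKO rests on the brightest probe. Tsc1, which restrains mTOR, fell in LWT by 0.47 and rose in LKO by 0.34, a difference of 0.81 (adjusted p = 0.000515). Sgk2, a kinase related to AKT, differed by -1.46 (adjusted p = 0.0103).

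In the list of inhibitors of insulin signalling, 10 of 20 genes were called in LWT, 7 higher and 3 lower, and 12 in LKO, 8 higher and 4 lower. Ptpn1, a phosphatase that dephosphorylates the receptor, rose by 1.53 in LWT (adjusted p = 5.7e-06) and by 1.29 in LKO (adjusted p = 4.62e-05). Socs3, a cytokine-induced inhibitor, rose by 3.01 in LKO (adjusted p = 0.00101), and Socs6 rose by 0.48 in LWT. Ptprf, another receptor phosphatase, fell in LWT by 0.62 on the log2 scale and was higher in LKO than in LWT under Beta3 (0.37, adjusted p = 0.0068). Trib2, a relative of Trib1, rose by 0.70 in LKO. For the difference between responses 0 of 20 were called, and 1 had an unadjusted limma p under 0.05.

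Among partners and modifiers of FoxO, 7 of 15 genes were called in LWT, 5 higher and 2 lower, and 10 in LKO, 8 higher and 2 lower. Ywhag and Ywhaz, adaptor proteins that hold phosphorylated FoxO in the cytoplasm, rose in LWT by 0.63 and 0.48. Ywhag rose less in LKO (difference -0.40, adjusted p = 0.024). Sirt1, a deacetylase of FoxO, rose by 0.78 in LKO (adjusted p = 3.47e-07), more than in LWT (difference 0.53, adjusted p = 0.00599), but its other probe was called in neither comparison. Ppargc1a, a coactivator of FoxO1 in glucose production, fell in LWT by 1.47 on the log2 scale (adjusted p = 0.00513), with a difference of 2.09 between responses (adjusted p = 0.0282). Mdm2 rose by 0.34 in LKO.

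Among genes known as FoxO targets, 19 of 31 were called in LWT, 10 higher and 9 lower, and 21 in LKO, 14 higher and 7 lower. For the difference between responses 10 of 31 were called, 6 higher and 4 lower (32.3%, against 5.41% of all genes). Many of the 31 are also targets of other factors, PPARα among them. Pdk4, which restrains glucose oxidation, rose by 6.77 in LWT (adjusted p = 1.57e-10) and by 2.04 in LKO, a difference of -4.73 (adjusted p = 3.38e-05). It was also the 1 gene of the 121 called under vehicle, higher in LKO by 2.04 (adjusted p = 0.0161). Igfbp1, an insulin-repressed secreted protein, rose by 4.53 in LKO (adjusted p = 1.85e-05), and Gadd45b rose by 2.79 there. Txnip and Pnpla2 rose in LWT by 2.12 and 1.49, and the LKO change of Pnpla2, 0.18, was not called (adjusted p = 0.411; difference -1.32, adjusted p = 0.000881). Atg14, an autophagy gene, rose by 1.14 in LKO, and Cdkn1b differed between responses by 0.48 (adjusted p = 0.00205). Gabarapl1 was higher in LKO under Beta3 by 0.67. G6pc and Pck1, the classical FoxO targets of glucose production, named here after their values were seen, were not called: G6pc gave 0.12 in LWT and -0.95 in LKO, and Pck1 0.34 and 0.29.

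Among genes that insulin induces, 7 of 15 were called in LWT, 6 lower and 1 higher, and 9 in LKO, 8 lower and 1 higher. Srebf1, the lipogenic transcription factor, fell in LWT by 1.96 on the log2 scale (adjusted p = 3.34e-06) and in LKO by 3.21 (adjusted p = 1.57e-08), with a difference of -1.25 (adjusted p = 0.0445). Thrsp fell by 1.35 in LWT, and it also fell in LKO. Mlxipl fell in LWT by 0.80, at 2 of its 3 probes, and Nr1h3 fell in LKO by 0.49. Ccnd1 differed between responses by -1.57 (adjusted p = 0.0488).

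**Figure D4:**
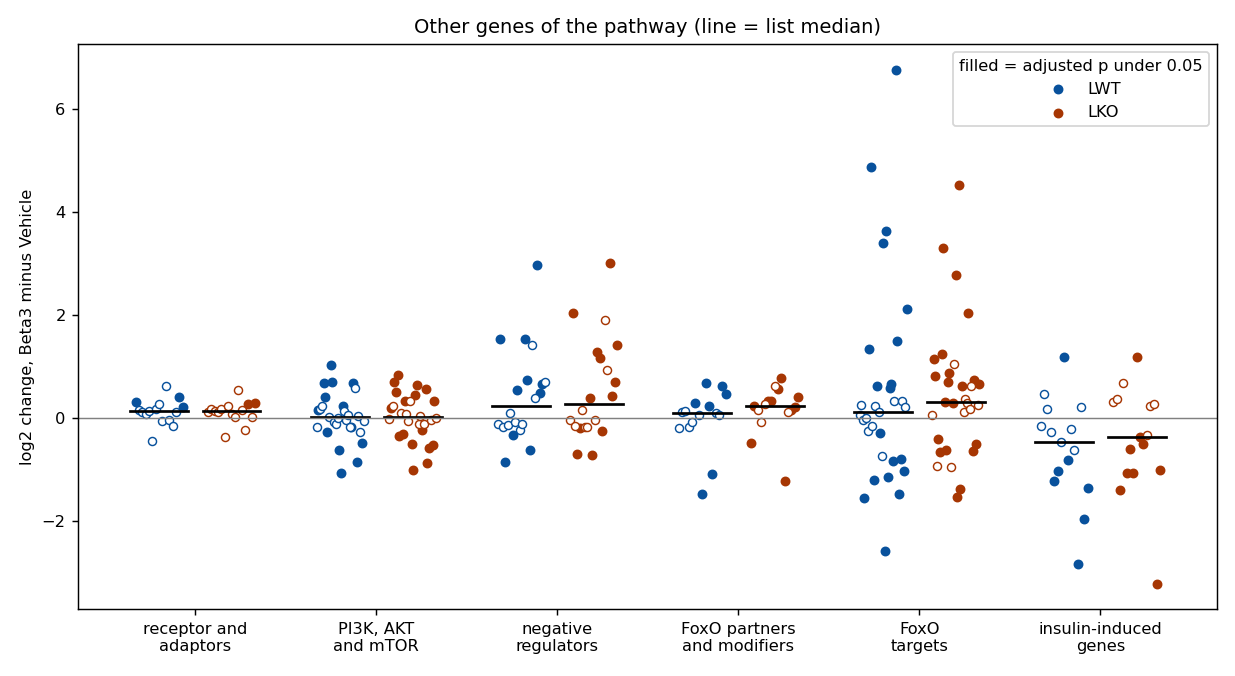
Log2 change with CL316243 (vertical axis, Beta3 minus Vehicle) for the tested genes of each of the 6 pathway lists, in LWT (blue) and LKO (orange). Each point is a gene, filled where adjusted p was under 0.05, and lines are list medians; the insulin-induced list has its median below 0 in both genotypes (-0.47 and -0.37), and the highest point is Pdk4 in LWT (6.77).

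The genes whose levels lay closest to those of 4 members over the 24 arrays were found by the root mean square difference of levels centred on each gene's mean. For Irs2, whose own levels spread by 1.52 around their mean, they were St5 at 0.56, Serpina3n at 0.61 and Nrp1 at 0.63. For Trib1, with a spread of 0.73, they were Stat3, Tsc22d2 and Fnip1, all between 0.25 and 0.26. Stat3 changed by 1.73 in LKO, beside 1.68 for Trib1. For Grb10, with a spread of 0.52, they were Rnf125, Ift74 and Pgpep1, between 0.32 and 0.33. For Insr, with a spread of 0.17, they were Polr3f, Mark3 and Rnf10 at 0.11 each.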

How the data were processed

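Gene expression was measured on Agilent single-colour arrays from 200 ng of liver RNA per mouse, labelled with Cy3. Per the file headers, the authors read the deposited intensities from the scans using version 10.10.1.1 of Agilent's Feature Extraction. The deposited series table holds log2 values whose columns have nearly the same quantiles; how it was normalized is not given in the sources used here, and it served as an alternative.

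Samples were grouped by genotype and treatment in their labels, and no label says how many litters or cages the mice came from. Outlier spots were left out, spots of a probe were averaged as log2, and each array's 75th percentile over gene spots was subtracted. The filter on dim signals asked that 4 or more of the 6 arrays in some group flag the probe as well above background, and that no group have fewer than 3 values; 32037 probes passed. The brightest kept probe stood for its gene. limma 3.58.1 (R 4.3.3) was fitted to all 24 arrays with 1 mean per group, and 5 contrasts were tested by the empirical Bayes method, with p-values adjusted over 21331 genes. Other probes of the members came from a fit over all kept probes. The fit was tested on simulated data. Probe places are the array's own, in build mm9.

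The arrays lay on 3 slides of 8, with 2 mice of every group on each slide. Slide was called for 49 genes and the row on the slide for 0. The number of arrays limits the precision: the median standard error of a log2 change was 0.13.

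The members and pathway lists were chosen with earlier results of these data known. Named genes were all members and, from each list, up to 3 genes with the smallest adjusted p in each response and in their difference, up to 2 in each genotype comparison, and for 4 members the 3 genes of closest pattern. Background correction, normalization, the percentile, the filter, slide and row blocks, a replicate block, array weights, the choice of probe, the samples fitted and each mouse left out in turn were varied.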

Additional observations from a re-analysis of the deposited data

Results flagged for a closer look

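In 5 of 80 sets of member levels, each a probe in a group, a mouse lay far from the rest of its group, by its gap to the nearest mouse as a share of the group's range. Chance gives about 1 in 20. In LKO Beta3, replicate 3 was low for Irs1 (-1.56, nearest -0.02, share 0.746) and for the Grb14 probe at base 2570 (-4.69, nearest -1.54, share 0.724). In LWT Vehicle, replicate 2 was low for Foxo3 at base 6438 (-0.07, nearest 0.19, share 0.730) and at base 2242 (-2.70, nearest -2.31, share 0.788). In LKO Vehicle, replicate 6 was low for Foxo3 at base 6438 (0.01, nearest 0.24, share 0.740).

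The response to the agonist differed between genotypes, by the interaction term, for Foxo3 at its brightest probe (0.70) and at base 2242 (1.01). Of the 17 pathway genes called for this difference, 11 are named. It was larger or less negative in LKO for Ppargc1a (2.09), Tsc1 (0.81), Sirt1 (0.53) and Cdkn1b (0.48). It was smaller or more negative in LKO for Pdk4 (-4.73), Ccnd1 (-1.57), Sgk2 (-1.46), Mtor (-1.34), Pnpla2 (-1.32), Srebf1 (-1.25) and Ywhag (-0.40). The brightest probes of Mtor and of Tsc1 were called in opposite directions in the genotypes. At the other Mtor probe the difference, -0.53, was close in size to its rise in LWT, 0.48, so it showed no clear fall in LKO.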

How the results depend on the processing

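Apart from leaving out mice, 600 of 640 comparisons of a member's change with an alternative kept their direction and side of the threshold, 13 lost and 23 gained a call, and 4 changed sign without a call on either side. The 4 were Grb10 in LKO with normexp (0.071), Akt2 in LKO with the percentile over probes detected on every array (-0.0061) and with the mean of its probes (-0.13), and Irs2 under vehicle with array weights (-0.16). The count of members whose response differed between genotypes was 1 as reported. It was 2 with normexp, quantile normalization, the series table, the other percentile, the filter of 6 of 6 arrays, the probe-level fit and the mean of probes, 5 with array weights and 0 without the filter. Over all genes that count was 2183 with array weights and 664 without the filter, against 1153. Under vehicle 610 genes were called with array weights and 167 without the filter, against 251. With the 12 mice of each comparison alone, 2203 genes and 1 member were called between Beta3 livers, against 3393 and 4.

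Same-numbered mice had correlated deviations of -0.18 to 0.42 over 36 pairs, 11 of them over 0.1, and 10 of 24 mice correlated best with their own number. The labels name no shared litter or day, so the numbers were not taken as pairs. These correlations cannot decide whether the mice were paired. With the replicate number as a block, 2 members differed between responses (Trib1 with adjusted p = 0.0139), Irs1 in LWT, Grb14 in LKO and Foxo1 between Beta3 livers gained a call, and Pik3r1 between Beta3 livers lost it (0.0553). Leaving out 1 mouse gave 4 to 8 members called in LWT, 5 to 6 in LKO, 1 to 3 for the difference between responses, 0 under vehicle and 3 to 6 under Beta3. It turned the sign of Grb10 in LKO (-0.29 to 0.083) and, under vehicle, of Insr (-0.054 to 0.036), Irs2 (-0.12 to 0.26), Foxo1 (-0.0032 to 0.16) and Foxo3 (-0.020 to 0.073), none of them called. Grb10, the Foxo3 probe at base 544 and the Trib1 probe at base 2507 lie near background, and the fall of Grb10 in LWT ran from -1.02 to -0.32 over the other settings.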
